A study of Drosophila melanogaster with 3 samples.

Results

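The transcripts of 2 genes of cyclic AMP (cAMP) signalling, dunce (dnc, FBgn0000479) and CrebB (FBgn0014467), were followed through 3 iCLIP libraries. The libraries were made against a GFP fusion of Aubergine (Aub) in cultured Drosophila melanogaster germline stem cells. Both genes were selected on their interval counts in these libraries and were taken by FlyBase gene ID from the 6502 genes with called intervals. Of the 51962 deposited intervals, 108 were assigned to dnc and 21 to CrebB, 129 in all. The 3 libraries form a single group without a control library and carry the replicate numbers of their titles. Counts and positions are therefore given as descriptions without a test.

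In iCLIP (individual-nucleotide crosslinking and immunoprecipitation), ultraviolet light bonds proteins to the RNA in contact with them, and the RNA recovered with the protein of interest is sequenced. Aub belongs to the Piwi family of Argonaute proteins, which bind piRNAs and act in the germline. In each library the cells had 1 copy of a UASp-GFP-aub transgene, driven in germ cells by nos-gal4. They carried the bam∆86 allele on both homologues and hs-bam, a bam transgene under a heat-shock promoter, and no drug was given. Irradiation was 150 mJ/cm2 at 254 nm in dishes of 150 mm. Separate cultures are not stated in the labels, and differences between the libraries may therefore be technical. The lists give gene IDs without symbols, and the germline markers of the cells were not checked here.

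In cAMP signalling, adenylyl cyclases make cAMP, cAMP releases the catalytic subunits of protein kinase A, and the kinase phosphorylates CREB-family transcription factors. dnc encodes a cAMP phosphodiesterase, which ends the signal by hydrolysing cAMP. CrebB encodes a CREB-family factor at the far end of the pathway. In the fly both genes are best known for learning and memory, and loss of dnc also impairs female fertility.

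Replicates 1, 2 and 3 held 4007, 36157 and 11798 intervals in 1459, 6364 and 3310 genes. The depth in reads is unknown, since the deposited score is 0 for every interval, and interval number stands in for it only indirectly. An interval is a stretch of transcript called in that library, with no height. Both genes held intervals in all 3 libraries, as did 20.9% of the 6502 genes. With a single condition and no measure of transcript abundance, a high number of intervals cannot be told apart from an abundant or long transcript.

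dnc was among the genes with the most intervals in these cells. Replicate 1 had 23 dnc intervals, replicate 2 had 67 and replicate 3 had 18. These counts ranked 2 of 1459 genes, 8 of 6364 and 38 of 3310, and 1, 3 and 11 among the genes of X. Over the libraries together dnc ranked 6. As a share of each library, dnc took 0.574% of intervals in replicate 1 (95% Wilson interval 0.383 to 0.860), 0.185% in replicate 2 (0.146 to 0.235) and 0.153% in replicate 3 (0.0965 to 0.241). The share was highest in replicate 1, the library with the fewest intervals. How many other genes had their highest share there was not counted, so nothing particular to dnc is read from this. Wilson intervals cover counting error alone and take called intervals as independent. The mean share was 0.304% ± 0.234 (SD, n = 3), and it was 0.169% without replicate 1.

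CrebB held fewer intervals, and its shares lay closer together. Replicates 1, 2 and 3 had 2, 14 and 5 CrebB intervals, with ranks of 521, 561 and 593. The shares were 0.0499% (0.0137 to 0.182), 0.0387% (0.0231 to 0.0650) and 0.0424% (0.0181 to 0.0992), with overlapping Wilson intervals. The highest share was 1.29 times the lowest, against 3.76 times for dnc. A single interval was worth 0.0250% of replicate 1, so the CrebB share there, and with it the 1.29, rested on 2 intervals. Whether CrebB was more even across the libraries than dnc cannot be told from these counts. By covered nucleotides, dnc took 0.537%, 0.189% and 0.200% of the libraries and CrebB 0.0588%, 0.0321% and 0.0549%.

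**Figure D1:**
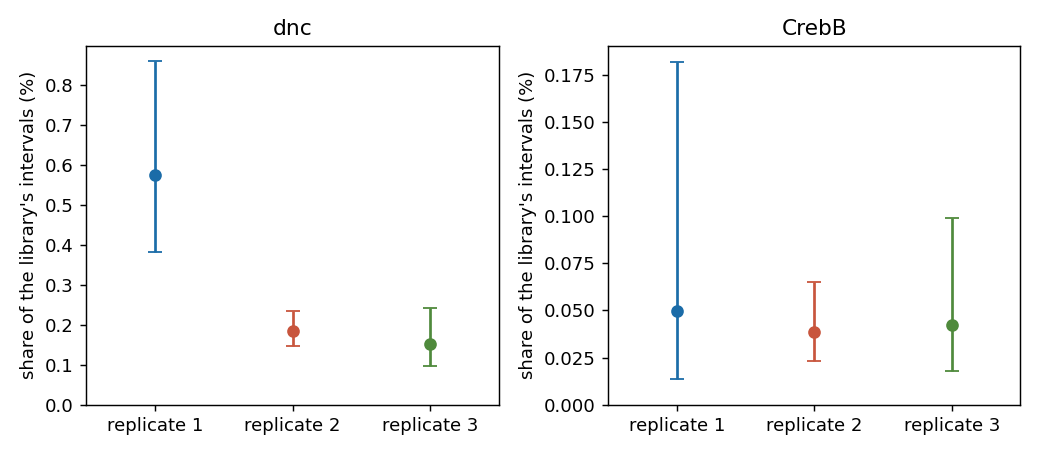
Share of each library's intervals assigned to dnc (left) and CrebB (right), in percent, with separate axes that start at 0. Points are libraries and bars are 95% Wilson intervals, which cover counting error only. For dnc replicate 1 (0.574%) lies above replicates 2 and 3, and for CrebB the 3 bars overlap.

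The intervals of dnc all lay on the plus strand of X, between positions 3070660 and 3236933 of build dm3, a span of 166274 nt. Only 3 of the 1361 genes with intervals in all 3 libraries had a longer span, and the median span was 8337 nt. None of the 108 intervals was also assigned to a second gene. The intervals were far from evenly spread. Joined where less than 2 kb apart, a distance chosen after the positions were seen, they formed 8 blocks that took up 7569 nt, or 4.55% of the span. The longest stretch without a dnc interval, 54679 nt, separated blocks 2 and 3. No exon annotation of dm3 was used, so blocks were not assigned to exons, introns or UTRs.

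Block 1, nearest the 5′ end, was short and held 1 interval in each library, at nearly the same position. Replicate 1 had an interval from 3070660 to 3070684, replicate 2 from 3070661 to 3070713 and replicate 3 from 3070662 to 3070711. The 5′ edges thus fell on neighbouring nucleotides, and 23 nt were covered in all 3 libraries. These intervals began 678 nt beyond the last interval of FBgn0040396, which had 3 intervals, in replicate 2 alone.

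Block 2, from 3083603 to 3084565, was 963 nt long and held 7, 12 and 8 intervals. It was the densest of the larger blocks, with 28.04 intervals per kb. It held 30.4%, 17.9% and 44.4% of the dnc intervals of the 3 libraries. In its first part, from 3083603 to 3083807, replicates 1, 2 and 3 had 3, 2 and 4 intervals. In its last part, from 3084272 to 3084565, they had 4, 4 and 2, the most of any dnc region (a region joins intervals of any library within 50 nt). There, 37 nt from 3084302 to 3084338 were covered in all 3 libraries.

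Blocks 3 to 7, between block 2 and the last block, held 29 of the 108 intervals. Block 3, from 3139245 to 3140224, held 1, 7 and 2 intervals. Block 4, from 3150330 to 3150350, held 1 interval each in replicates 1 and 2, ending on the same nucleotide. Block 5, from 3152644 to 3152786, held 1, 2 and 1. In block 5 the interval of replicate 1 began on the same nucleotide as one of replicate 2 (3152644), and that of replicate 3 began on the same nucleotide as the other (3152762). Block 6, from 3183498 to 3185249, held 4, 5 and 3 intervals. Block 7 was a single interval of 25 nt in replicate 3, from 3223799 to 3223823, with 9479 nt to the nearest interval of another library.

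Block 8, nearest the 3′ end, held the most intervals and had the widest range of counts between libraries among the 8 blocks. It ran from 3233303 to 3236933 and held 8, 39 and 2 intervals of replicates 1, 2 and 3. It therefore carried 58.2% of the dnc intervals of replicate 2, against 34.8% in replicate 1 and 11.1% in replicate 3. Replicate 3 ended at 3234134 and replicate 2 at 3235610, whereas replicate 1 had its last interval from 3236909 to 3236933. Blocks 2 and 8 together held 76 of the 108 intervals (70.4%).

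**Figure D2:**
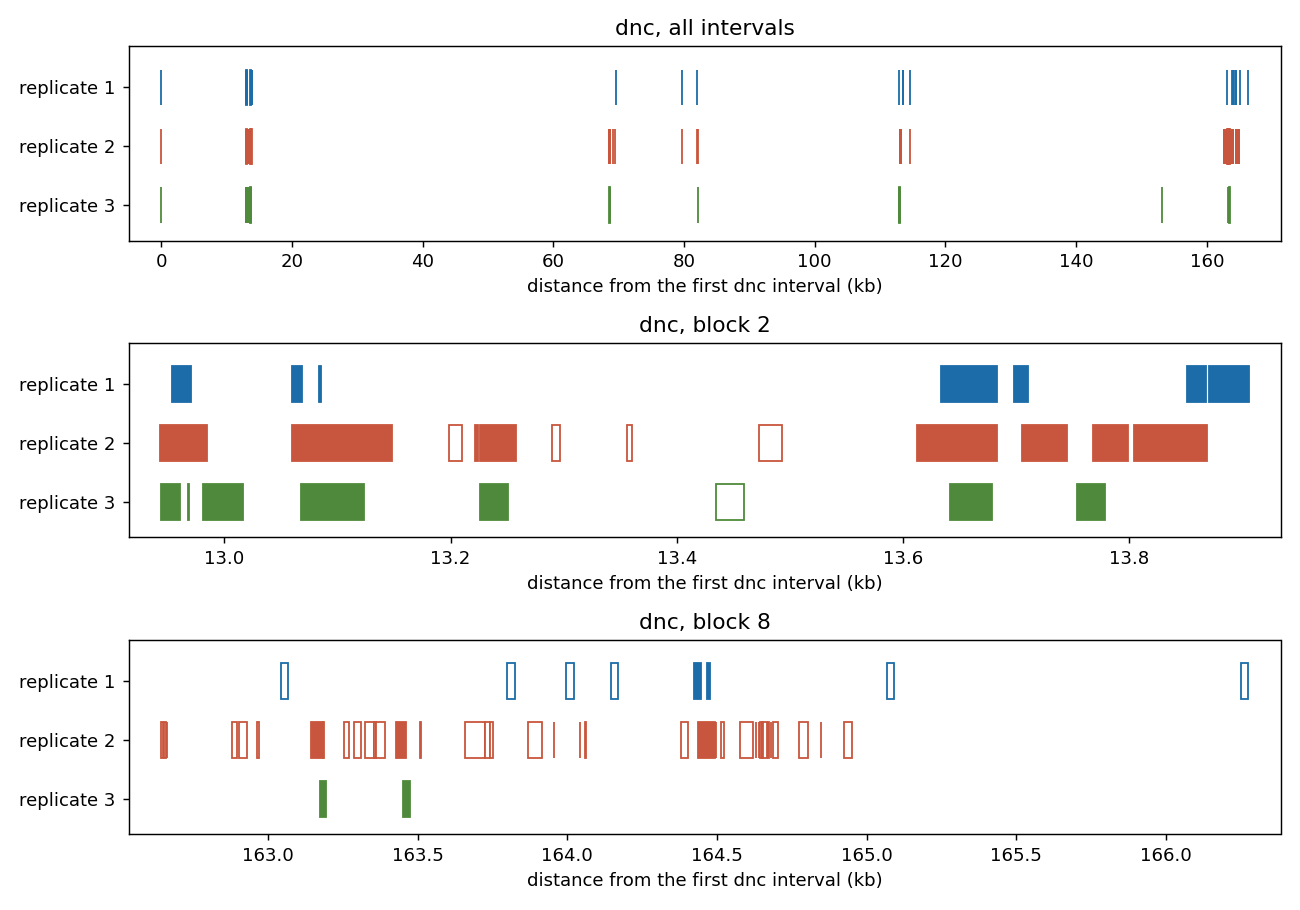
Called intervals of dnc in each library along the gene, with distance from the first dnc interval in kb on the horizontal axis and a row per replicate. The top panel shows all 108 intervals (drawn with a minimum line width), and the lower panels enlarge blocks 2 and 8, where filled boxes lie within 10 nt of an interval of another library and open boxes do not. Most boxes of block 2 are filled and most of block 8 are open.

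**Figure D3:**
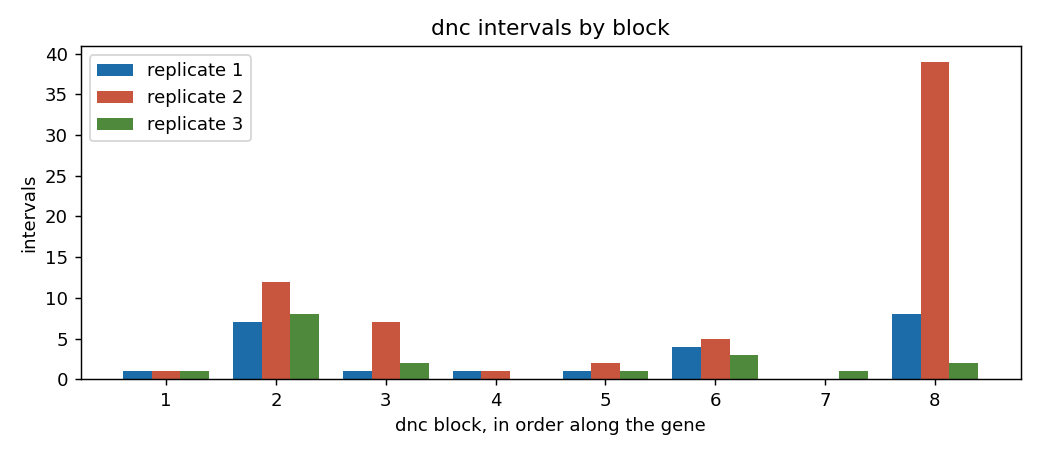
Number of dnc intervals in each of the 8 blocks, in order from 5′ to 3′, with a bar per library. Replicate 2 has 39 intervals in block 8, against 8 and 2 in replicates 1 and 3, while block 2 holds 7 to 12 in each library.

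In dnc, which encodes the phosphodiesterase, positions recurred between libraries. An interval was counted as recurring when an interval of at least 1 other library lay within 10 nt on the same strand. In dnc 48 of 108 intervals recurred (44.4%, 95% Wilson interval 35.4 to 53.8), against 30.3% of the distinct intervals of all genes. The pooled shares differ in their mix of libraries. Replicate 1 gave 23 of the 108 dnc intervals but only 3986 of the 51495 distinct intervals of all genes. The 30.3% also includes genes without intervals in all 3 libraries, so it is no like baseline for dnc. By library, 13 of 23 dnc intervals recurred in replicate 1 (56.5%, 36.8 to 74.4), where 62.9% of all intervals did. In replicate 2, 21 of 67 recurred (31.3%, 21.5 to 43.2), where 21.0% of all intervals did. In replicate 3, 14 of 18 recurred (77.8%, 54.8 to 91.0), where 47.7% of all intervals did. The dnc share was thus below that of all genes in replicate 1 and above it in replicates 2 and 3. In replicate 2 the lower Wilson limit (21.5%) was close to the share over all genes (21.0%). The intervals of a gene are not independent, so the Wilson intervals are not read as a test.

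Recurrence in both other libraries was met by 5 dnc intervals in each library. The corresponding shares over all genes were 30.0%, 3.60% and 10.9% of the intervals of replicates 1, 2 and 3. By pair, 12 of the 23 intervals of replicate 1 lay near one of replicate 2 (52.2%, against 59.9% over all genes) and 6 near one of replicate 3 (26.1%, against 33.0%). Of the 67 intervals of replicate 2, 9 lay near one of replicate 1 (13.4%, against 7.60%) and 17 near one of replicate 3 (25.4%, against 17.0%). Of the 18 intervals of replicate 3, 13 lay near one of replicate 2 (72.2%, against 46.6%) and 6 near one of replicate 1 (33.3%, against 12.0%). Among the 622 genes with at least 20 intervals and intervals in all 3 libraries, the median recurring share was 42.04% (quartiles 30.4 and 55.0), and dnc ranked 279. Its recurrence was close to the middle of those genes, and nothing particular to dnc is read from it.

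The recurring positions were unequally placed along dnc. In block 2, 22 of 27 intervals recurred (81.5%, 63.3 to 91.8), 7 of 7 in replicate 1, 8 of 12 in replicate 2 and 7 of 8 in replicate 3. In block 8, 9 of 49 recurred (18.4%, 9.98 to 31.4), 2 of 8 in replicate 1, 5 of 39 in replicate 2 and 2 of 2 in replicate 3. The lower share in block 8 was thus seen in replicates 1 and 2 and not in the 2 intervals of replicate 3. Replicate 2, in which recurrence was lowest over all genes, gave 39 of the 49 intervals of block 8 and 12 of the 27 of block 2. Recurrence needs an interval of another library nearby. For replicate 2, block 8 held 8 and 2 intervals of replicates 1 and 3 over 3631 nt, and block 2 held 7 and 8 over 963 nt. The lower share in block 8 cannot be told apart from this scarcity of neighbours. The blocks were defined after the positions were seen, and their difference was not tested. Block 1 recurred in 3 of 3 intervals, blocks 4 and 5 in 2 of 2 and 4 of 4, block 3 in 3 of 10 and block 6 in 5 of 12. Without block 8, 39 of 59 dnc intervals recurred (66.1%). Among the 6502 genes, 33.7% had at least 1 recurring interval. Of the 1361 genes with intervals in all 3 libraries, as dnc had, only 126 had none.

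Exact coincidence was rarer. A 5′ edge was shared to the nucleotide at 4 positions of dnc, at 3083720 and 3152644 between replicates 1 and 2 and at 3083886 and 3152762 between replicates 2 and 3. A 3′ edge was shared at 3084342 and 3150350, in both cases between replicates 1 and 2. Shared edges were not counted over all genes, so nothing particular to dnc is read from them. No dnc interval had both edges in common with one of another library, so no dnc interval was an exact copy of one elsewhere. Whether libraries shared source material cannot be read from this, since they differed in interval number and width. Of the 1722 nt covered in any library, 292 were covered in 2 libraries and 70 in 3 (4.07%, against 1.87% of the nucleotides covered over all genes). The latter includes the many genes without intervals in all 3 libraries and is no like baseline for dnc. These 70 nt lay in blocks 1 and 2. Regions with intervals of all 3 libraries numbered 4 in dnc. Of the 6502 genes, 842 (12.9%) had such a region, but only 1361 had intervals in all 3 libraries. The 12.9% therefore does not make such a region uncommon among genes like dnc. Besides block 1 and the first and last parts of block 2, the fourth lay in block 6, from 3183586 to 3183712, with 1, 2 and 2 intervals and no nucleotide covered in all 3 libraries.

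In CrebB, which encodes the transcription factor, no position recurred. Its 21 intervals lay on the plus strand of X from 18261145 to 18271659, a span of 10515 nt, and none was also assigned to a second gene. They formed 3 blocks. Block 1, from 18261145 to 18261202, held 3 intervals of replicate 2. Block 2, from 18265289 to 18266327, held 4 of replicate 2 and 2 of replicate 3. Block 3, from 18270463 to 18271659, held 2, 7 and 3 intervals of replicates 1, 2 and 3, and is the only block with intervals of replicate 1. Per kb of span CrebB had 2.00 intervals and dnc 0.650, but the span is not a transcript length.

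None of the 21 CrebB intervals recurred within 10 nt, which allows a share of up to 14.3% by a count of 3. The 95% Wilson upper limits were 65.8%, 21.5% and 43.4% in replicates 1, 2 and 3, for 2, 14 and 5 intervals. The limit lay near the share over all genes in replicate 2 (21.0%) and below it in replicate 3 (47.7%). In replicate 1 the 2 intervals allow no statement. This is a description and not a test, since the intervals of a gene are not independent. In replicate 2, 6 of 13 neighbouring pairs of CrebB intervals lay within 10 nt of each other (46.2%, against 30.3% over all genes). Joined within 10 nt, the 14 intervals counted 8. The upper limit for 8 would be higher and was not computed, so the 21.5% carries little weight. The smallest gap was 34 nt, between replicate 1 (18270584 to 18270608) and replicate 3 (18270643 to 18270667), and the median gap to the nearest interval of another library was 77 nt, against 19 nt in dnc. In block 3 no interval touched one of another library. Beyond that pair lay intervals of replicate 3 from 18271174 to 18271198, replicate 1 from 18271278 to 18271302, replicate 2 from 18271379 to 18271403 and replicate 3 from 18271518 to 18271542, and 2 of replicate 2 ended the block. No nucleotide of the 388 covered was covered in more than 1 library. No region held intervals of all 3 libraries, and the fullest regions, from 18265289 to 18265391 and from 18270463 to 18270523, held 4 intervals each, all of replicate 2. Over all genes 842 had a region with intervals of all 3 libraries, whereas 1361 had intervals in all 3. Many of those 1361 therefore had no such region either. Among the 622 genes with at least 20 intervals, 8 had no recurring interval, CrebB among them, and among the 1361 genes with intervals in all 3 libraries 126 had none. Joined within 10 nt CrebB counted 15 intervals, below the cut of 20, so its place among the 622 depends on how intervals are split.

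**Figure D4:**
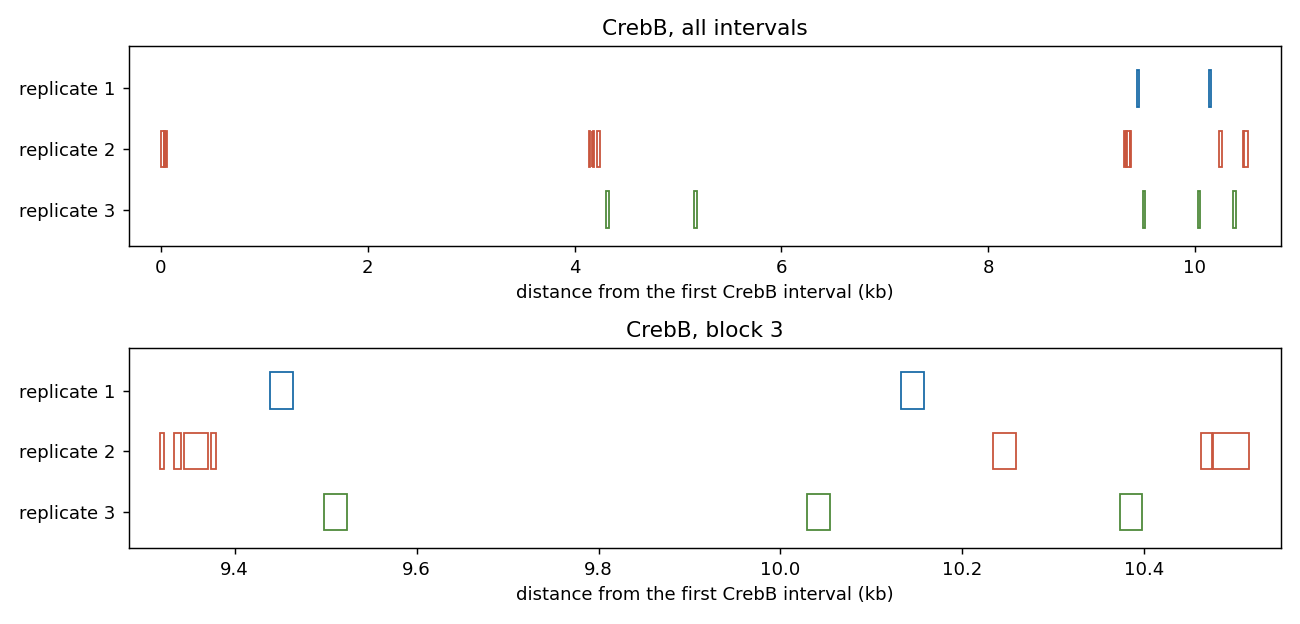
Called intervals of CrebB in each library, with distance from the first CrebB interval in kb and a row per replicate. The lower panel enlarges block 3. All 21 boxes are open, as none lies within 10 nt of an interval of another library, and replicate 1 has its 2 intervals in block 3.

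**Figure D5:**
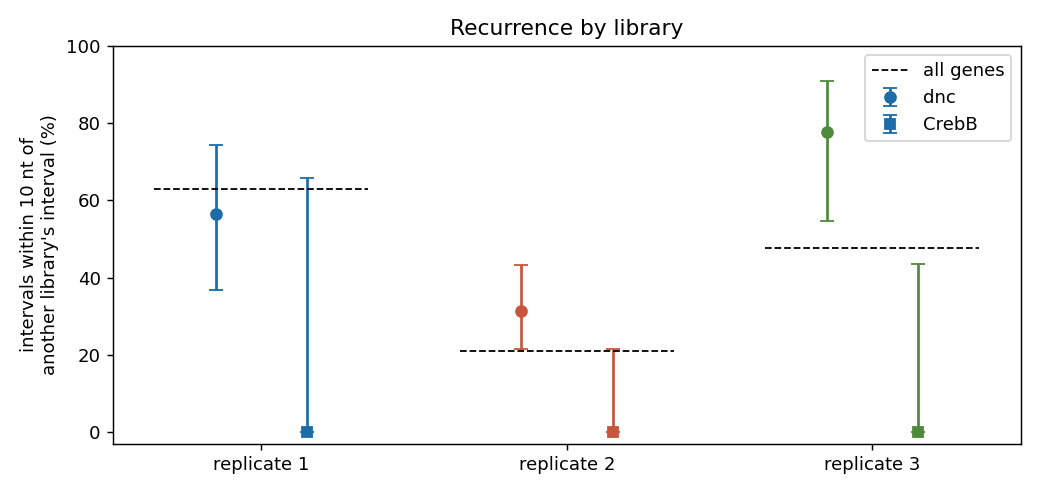
Percentage of the intervals of dnc (circles) and CrebB (squares) in each library that lay within 10 nt of an interval of another library, with 95% Wilson intervals. Dashed lines give the same share over all genes (62.9%, 21.0% and 47.7%). CrebB is at 0 in each library, and dnc lies above the dashed line in replicates 2 and 3.

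Interval widths differed between the libraries. Intervals of exactly 25 nt made up 52.1%, 9.00% and 47.5% of replicates 1, 2 and 3. In dnc they were 11 of 23, 1 of 67 and 8 of 18, and in CrebB 2 of 2, 1 of 14 and 4 of 5. The median width of dnc intervals was 25, 10 and 25 nt, and that of CrebB the same in each library, against 25, 13 and 25 nt over all intervals. The widest dnc intervals were 49, 88 and 55 nt. In replicate 2, intervals of a gene often lay close to one another. Of its 66 neighbouring pairs of dnc intervals, 23 lay within 10 nt of each other (34.8%), against 1 of 22 in replicate 1 and 1 of 17 in replicate 3. Over all genes the shares were 30.3%, 8.24% and 10.2% for replicates 2, 1 and 3. Joined within 10 nt, dnc counted 22, 44 and 17 and CrebB 2, 8 and 5 intervals. The rank of dnc was then 2, 8 and 26 and that of CrebB 502, 791 and 529.

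Other genes had intervals of their own inside both spans. FBgn0003374 had a single interval of replicate 2 on the plus strand from 3144091 to 3144100, between blocks 3 and 4 of dnc, where no dnc interval lay. A RefSeq table of the Release 6 assembly lists several genes, among them Pig1, Sgs4 and the ng genes, inside dnc, but does not pair this ID with a symbol. FBgn0004957 had a single interval of replicate 2 on the minus strand from 18271626 to 18271657, opposite the last CrebB interval of the same library (18271620 to 18271659). The table lists por as overlapping the end of CrebB. Whether that minus-strand interval arose from a separate transcript was not tested.

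By interval counts, the genes most like dnc were FBgn0261836 (21, 70 and 25 intervals in replicates 1, 2 and 3), FBgn0035142 (16, 74 and 21) and FBgn0262735 (13, 60 and 18). Likeness was the summed absolute difference in log2 (intervals + 1) over 3 libraries, which was 0.64, 0.85 and 0.93. Their recurring shares were 20.7%, 59.5% and 38.5%, on both sides of the 44.4% of dnc. For CrebB they were FBgn0026239 and FBgn0044826, both with 2, 15 and 5 intervals, and FBgn0010877 with 2, 13 and 5. The last of these was taken by gene ID from 4 genes at the same distance. The named genes had 7, 4 and 13 recurring intervals, against 0 in CrebB.

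The rest of the pathway could not be followed. Of 24 listed genes of cAMP signalling, among them the adenylyl cyclase rut, the kinase subunits Pka-C1, Pka-R1 and Pka-R2 and the CREB coactivators nej and CRTC, 23 were in the RefSeq table by symbol or synonym. The table gave a FlyBase ID for 1, the phosphodiesterase gene Pde1c (FBgn0264815). That ID had no interval in the 3 lists, and whether the annotation behind them held it was not tested. The remaining genes were not analysed here.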

How the data were processed

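The deposited lists give chromosome, start, end, FlyBase gene ID, a score that is 0 in every row, and strand for intervals called separately in each library. Per the submitters' processing notes, CASAVA 1.4, TopHat2 2.0.13 and build dm3 were used. The peak caller, its threshold, the annotation and duplicate removal (a 5-nt random barcode was present) were not given in the sources used here. Positions are 1-based on dm3. Rows at 1 position assigned to 2 genes were counted for each gene, but as 1 interval in shares of distinct intervals. A gap is the number of nucleotides between interval edges. The members and lists were chosen with earlier results of these data known. Named items were both genes, the pathway list, genes with intervals inside their spans, the 3 genes nearest by counts, and regions with intervals of all 3 libraries or the most intervals. The RefSeq table pairs FBgn0014467 with CrebB. It holds dnc without a FlyBase ID, so FBgn0000479 carries its FlyBase name. No sequence of dm3 was used. The interval search was tested on a sample of deposited intervals of replicate 1, against the intervals of replicate 2 with shifted copies of part of the sample planted. Scripts ran on Python 3.11.15 with scipy 1.17.1, pandas 2.3.3, numpy 2.4.6 and matplotlib 3.10.9.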

Additional observations from a re-analysis of the deposited data

How the results depend on the processing

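Of 43 alternative values, 30 moved by less than the spread between libraries, the counting interval or 1.5 times. Some of the 30 could not have moved, as given below. Leaving out a library cannot move a mean share by 1 SD, and the mean share of dnc then ranged from 0.169% to 0.380%. The recurring share of dnc (44.4%) was 7.41% with an exact shared 5′ edge and 63.9% with a gap of at most 50 nt. It was 66.1% without block 8, an alternative chosen after seeing the data, as was joining within 10 nt (48.2%). Leaving out 1 library at a time gave 23.3% to 35.3%. This removes possible neighbours and also changes which intervals are counted, and the 2 were not separated. The 4 common regions of dnc became 15 with at least 2 libraries, and leaving out 1 library gave 4 to 10. The mean share of CrebB (0.0437%) was 0.0637% among intervals at or above the median width, and the cause was not tested. Its 0 common regions became 2 when joined within 200 nt and 1 with at least 2 libraries, and leaving out 1 library gave 0 to 1. Its recurring share was 9.52% (2 of 21) with a gap of at most 50 nt and 0 in the other alternatives. The smallest gap was 34 nt, and those alternatives neither widen the 10-nt rule nor add intervals. They therefore had to return 0 and lend the result no weight. No paired analysis was possible because the libraries form a single group. Groups of 3 were not tested for outliers.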

Other observations

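Recurrence was also set against interval width. In replicate 1, 50.7% of the 25-nt intervals of all genes recurred within 10 nt in another library, against 76.1% of the others. In dnc these were 3 of 11 and 10 of 12. In replicate 3 the shares over all genes were 36.2% and 58.1%, and in dnc 6 of 8 and 8 of 10. In replicate 2 they were 18.1% and 21.3% over all genes, and dnc had 1 interval of 25 nt, which did not recur. Of intervals over 25 nt, 94.5%, 45.8% and 87.9% recurred in replicates 1, 2 and 3 over all genes, and 2 of 2, 12 of 19 and 4 of 4 in dnc. CrebB, with 7 of its 21 intervals at exactly 25 nt, had no recurring interval of any width. These differences were not tested.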
